A study of Mus musculus with 34 samples.

Results

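The regions described here are the 6374 places in differentiating 3T3-L1 cells at which a KDM5C peak of day 2 overlapped a KDM5A peak by at least 1 bp. They were 43.0% of the 14827 KDM5C peaks, and they touched 6244 of the 87525 KDM5A peaks (7.13%). 3T3-L1 is a mouse preadipocyte line that turns into fat-storing adipocytes after a hormonal cocktail of dexamethasone, insulin and 3-isobutyl-1-methylxanthine with fetal bovine serum. Day 0 is confluent cells before the cocktail, and day 2 is 2 days after it. Chromatin of day 2 was precipitated with an antibody to KDM5C (A301-034A, Bethyl; 2 libraries) or with one to KDM5A (ab70892, Abcam; 2 libraries), after fixation with disuccinimidyl glutarate and formaldehyde. The labels name no transduction for these cells. A single Input library, with no time point named, served as background in both tables. The same series holds polyA RNA and H3K4me3 libraries of cells transduced with a control hairpin against luciferase (shLuc) or with hairpins against Kdm5a, Kdm5b and Kdm5c together (shKdm5ABC), 2 libraries for each of day 0, 4 hours and day 2. The labels number the libraries as experiments but do not say whether cultures were separate, so the p-values measure only the spread between these libraries.

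KDM5A, KDM5B and KDM5C are JmjC-domain enzymes that remove methyl groups from lysine 4 of histone H3. Trimethylation of that lysine, H3K4me3, marks the start sites of active genes and lies mostly on CpG-rich promoters. KDM5A was found as a partner of the retinoblastoma protein, and KDM5C is encoded on the X chromosome and is mutated in a form of X-linked intellectual disability.

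Upstream bases of 6 genes whose peaks ranked differently for the proteins are shown first, because they range from CpG-rich to CpG-poor. Each is the 250 bases before the annotated start in RefSeq's table for build GRCm38.p6, read 5′ to 3′ on the gene's strand, with every CpG in capitals. Npas4, Cltc, Hdac2 and Plin1 were ranked higher for KDM5C, and Nat10 and Nip7 were ranked higher for KDM5A. The bases of the peaks themselves are not shown, since no mm9 genome was used here, and the KDM5C peaks of Npas4, Nat10 and Nip7 lie 732, 951 and 425 bp downstream of the start, outside the bases printed. The sequences hold 16, 22, 27, 1, 18 and 22 CpGs in that order, so the Plin1 promoter stands apart from the other 5.
Npas4 promoter, chr19:4989972-4990221, minus strand: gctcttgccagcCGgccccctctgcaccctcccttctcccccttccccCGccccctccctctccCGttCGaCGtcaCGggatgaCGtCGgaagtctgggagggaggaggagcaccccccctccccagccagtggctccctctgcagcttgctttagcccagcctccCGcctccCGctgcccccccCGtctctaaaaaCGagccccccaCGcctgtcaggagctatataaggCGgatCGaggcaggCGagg
Cltc promoter, chr11:86757568-86757817, minus strand: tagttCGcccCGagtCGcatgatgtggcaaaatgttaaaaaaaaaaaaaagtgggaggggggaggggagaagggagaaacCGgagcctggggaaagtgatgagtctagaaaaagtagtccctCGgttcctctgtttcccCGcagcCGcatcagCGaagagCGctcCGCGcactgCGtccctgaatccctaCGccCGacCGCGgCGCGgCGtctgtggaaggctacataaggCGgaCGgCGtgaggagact
Hdac2 promoter, chr10:36974294-36974543, plus strand: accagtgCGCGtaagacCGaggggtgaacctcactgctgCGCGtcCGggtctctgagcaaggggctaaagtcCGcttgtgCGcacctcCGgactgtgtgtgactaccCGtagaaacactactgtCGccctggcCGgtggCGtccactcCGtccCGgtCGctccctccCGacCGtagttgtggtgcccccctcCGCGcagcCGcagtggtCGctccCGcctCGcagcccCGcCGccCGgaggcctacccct
Plin1 promoter, chr7:79732777-79733026, minus strand: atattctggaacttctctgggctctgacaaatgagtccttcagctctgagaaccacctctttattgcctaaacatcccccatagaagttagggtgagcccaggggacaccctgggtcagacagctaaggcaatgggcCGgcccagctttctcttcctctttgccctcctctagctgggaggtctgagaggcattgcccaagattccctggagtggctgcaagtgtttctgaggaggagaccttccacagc
Nat10 promoter, chr2:103761271-103761520, minus strand: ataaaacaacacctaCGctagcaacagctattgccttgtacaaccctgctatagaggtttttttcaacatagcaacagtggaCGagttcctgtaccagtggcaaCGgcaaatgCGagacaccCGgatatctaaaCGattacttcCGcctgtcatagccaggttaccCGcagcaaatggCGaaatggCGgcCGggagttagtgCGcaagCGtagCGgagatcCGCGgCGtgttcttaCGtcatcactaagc
Nip7 promoter, chr8:107056627-107056876, plus strand: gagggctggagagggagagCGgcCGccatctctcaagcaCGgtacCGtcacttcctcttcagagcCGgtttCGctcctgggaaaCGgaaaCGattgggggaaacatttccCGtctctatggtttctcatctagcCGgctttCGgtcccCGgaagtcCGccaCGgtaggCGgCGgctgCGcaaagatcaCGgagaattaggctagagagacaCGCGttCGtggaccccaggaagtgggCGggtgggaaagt

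Reads per peak were few for both proteins, and the share of reads in peaks was far lower for KDM5C. Tags in the deposited tables were whole multiples of the worth of 1 read, which was 3.39 and 1.23 tags in the KDM5C libraries and 2.27 and 0.773 tags in the KDM5A libraries of day 2. Over all peaks of each table, a KDM5C peak held a median of 5 reads in replicate 1 and 6 in replicate 2, and a KDM5A peak 4 and 12. The total to which tags were scaled is not stated, and if it was HOMER's default, 3.49% and 1.47% of KDM5C reads lay in KDM5C peaks, against 42.5% and 32.2% of KDM5A reads in KDM5A peaks. RNA of the shLuc cells had the labelled course, with Adipoq, the gene of adiponectin, at a log2 level of 3.00 and 3.30 at day 0 and of 9.27 and 10.4 at day 2. Of the macrophage genes, Adgre1 and Ptprc were at the floor of the table in all 6 RNA libraries examined (day 0 and day 2 of shLuc, day 2 of shKdm5ABC), Csf1r lay between -0.27 and 1.27, and Cd68 between 4.25 and 4.85. Kdm5c RNA at day 2 was 8.29 and 8.49 in shLuc and 7.17 and 6.91 in shKdm5ABC cells (log2 difference -1.35, SE 0.18, adjusted p = 0.0029, limma with Benjamini-Hochberg adjustment), and Kdm5a and Kdm5b were lower by the same test. The H3K4me3 libraries went against their labels. H3K4me3 tags at Adipoq were 174 and 161 in the libraries labelled shKdm5ABC 4 hour and 125 and 65.7 in those labelled shKdm5ABC Day 2, but 24.3 and 10.47 in those labelled shLuc Day 2, close to the 17.4 and 8.68 of shLuc Day 0. Cidec and Plin1, a pair of lipid droplet genes, likewise had high H3K4me3 only in the libraries labelled shKdm5ABC 4 hour and shKdm5ABC Day 2. For these libraries knockdown and time cannot be told apart, and results on H3K4me3 below rest on levels over all 12 libraries.

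Sharing followed distance to a start site. Of the 2172 KDM5C peaks within 1000 bp of a start, 94.1% overlapped a KDM5A peak, and of the 12655 farther away 34.2% did. The shared set therefore held 2044 promoter peaks, at 2007 genes, and 4330 distal ones. Shared KDM5C peaks had medians of 23.8 and 11.1 KDM5C tags in the 2 libraries, against 17.0 and 4.92 in the 8453 KDM5C peaks without KDM5A. Of KDM5C peaks whose identifier carries a merge number of 2 or more, which is read here as the number of peaks joined, 77.3% were shared, against 38.5% of those with 1. Most shared peaks, 6320, had 1 KDM5A partner, and 173 KDM5A peaks held more than 1 KDM5C peak. The windows differed in size, with median widths of 500 bp for KDM5C and 1115 bp for the KDM5A partners. At the edge of the definition, the 122 peaks that overlapped by at most 100 bp and the 103 that missed a KDM5A peak by at most 100 bp had the same KDM5C medians, 17.0 and 7.38 tags.

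Within the shared set the KDM5A libraries ranked the peaks alike, and the KDM5C libraries did so far less. Because the tables were made separately, each library was turned into percentile ranks over the 6374 peaks, and only ranks were compared. Spearman's rho across peaks was 0.92 between the KDM5A libraries and 0.46 between the KDM5C libraries. Between a KDM5C and a KDM5A library it was 0.29 to 0.33, and 0.16 to 0.18 among the promoter peaks alone. KDM5C replicates resembled each other more at promoters (rho 0.62) than at distal peaks (0.34), and most at the 1328 peaks with a merge number of 2 or more (0.72). These correlations are descriptions across peaks, which share libraries, Input and window width. Tags followed Input and width in both tables. With Input, rho was 0.71 and 0.68 for KDM5C and 0.89 and 0.91 for KDM5A, the latter near the 0.92 between the KDM5A libraries. With peak width it was 0.62 and 0.61 for KDM5C and 0.85 and 0.90 for KDM5A. At the 5046 peaks with a merge number of 1, rho was 0.21 between the KDM5C libraries and 0.28 to 0.35 between a KDM5C and a KDM5A library. If the merge number counts joined peaks, choosing by it can itself lower or raise the agreement of the KDM5C libraries. The values for merge numbers of 1 and of 2 or more therefore describe those sets only. With tags divided by peak width, the KDM5C replicates had a rho of 0.19 over all shared peaks and 0.024 over the distal ones, while a KDM5C and a KDM5A library had 0.32 to 0.36 over all. Of the highest 10% by mean percentile rank of the 2 libraries, 636 peaks for KDM5C and 638 for KDM5A, 112 peaks were in both sets (17.6% of each). The same overlap was 434 peaks between the KDM5C libraries (67.3% and 68.6%) and 552 between the KDM5A libraries (86.4% and 86.7%).

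KDM5A tags were concentrated at promoters, and KDM5C tags were spread more evenly. Promoter peaks were 32.1% of the shared set. They held 39.2% and 39.4% of the KDM5C tags in shared peaks and 69.1% and 67.5% of the KDM5A tags. The groups did not overlap, and the difference of means was -29.0 percentage points (39.3% ± 0.098 against 68.3% ± 1.13, SD, n = 2 each; exact permutation test, two-sided, p = 0.333, the smallest that 2 against 2 libraries can give). Input of the KDM5C table had 44.3% of its tags in the same promoter peaks, and the figure for Input over the KDM5A windows was 60.5%. Median KDM5A tags were 263 and 196 at promoter peaks against 18.2 and 16.2 at distal ones, while median KDM5C tags were 27.2 and 13.5 against 20.4 and 11.1. Input moved in the same direction, from 1.8 to 12.6 tags between distal and promoter KDM5A windows and from 0.9 to 1.8 between the KDM5C windows, and its part in these levels was not tested.

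**Figure D1:**
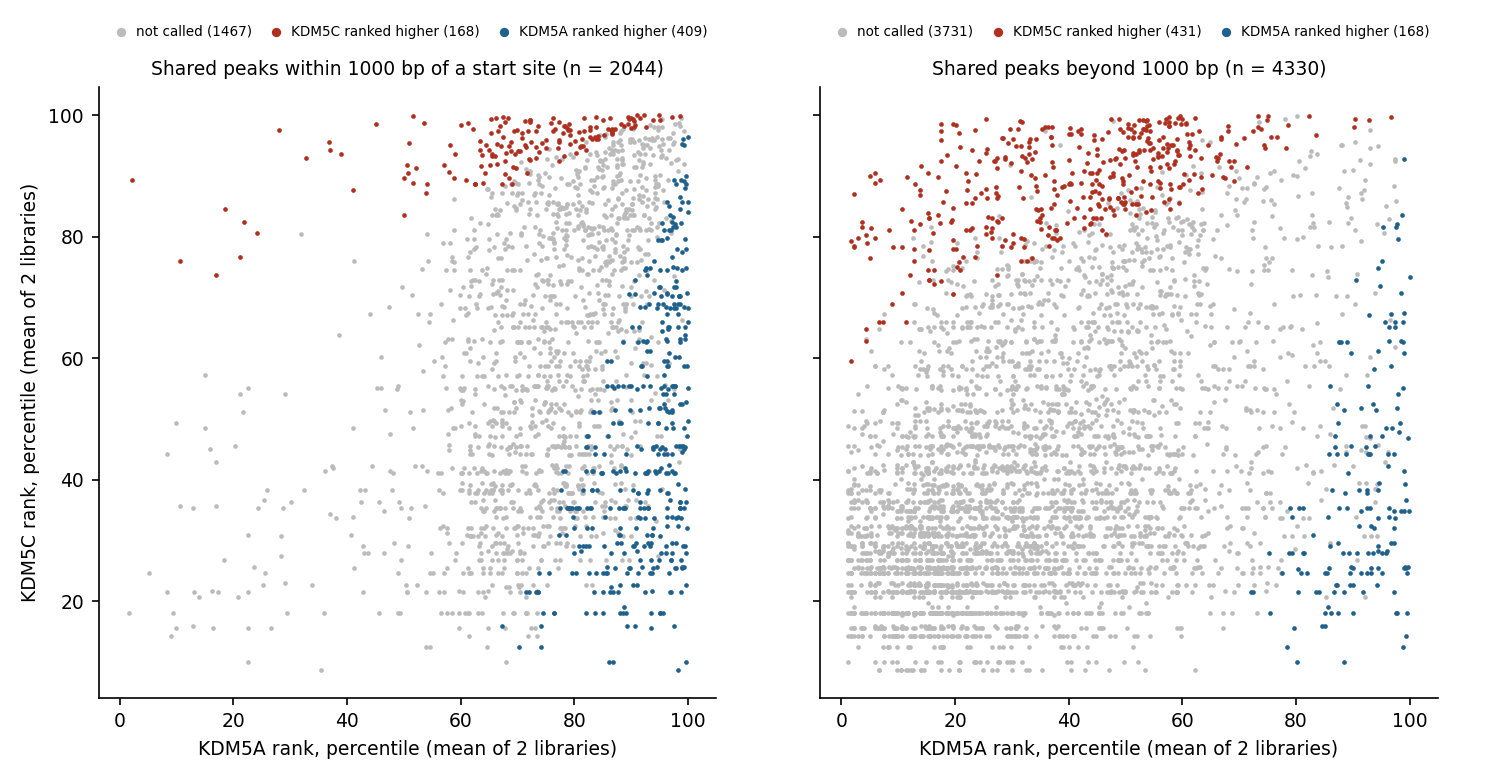
Mean percentile rank of KDM5A tags (x axis) and KDM5C tags (y axis) of every shared peak, at promoters (left, n = 2044) and beyond 1000 bp (right, n = 4330), with peaks past the threshold of the rank comparison in red (KDM5C higher) or blue (KDM5A higher). Promoter peaks crowd at high KDM5A ranks, while KDM5C ranks fill the whole range in both panels.

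A comparison of rank scores peak by peak separated 1176 of the 6374 peaks. KDM5C was ranked higher at 599 of them (9.40% of the shared set) and KDM5A at 577 (9.05%), at an adjusted p below 0.05 by limma with a mean-variance trend and Benjamini-Hochberg adjustment (2 libraries each). Both KDM5C libraries ranked above both KDM5A libraries at 2000 peaks (31.4%) and below both at 1954 (30.7%). The count depended on the processing. With tags per kb of peak, or without the trend, no peak passed by limma with the same adjustment, although 1223 and 1968 peaks had an unadjusted p below 0.05, as 2135 did in the main comparison. Scaling by log2(tags + 1) gave 821 KDM5C-higher and 2274 KDM5A-higher peaks, and edgeR's quasi-likelihood test on recovered reads gave 1192 and 2078. KDM5C-higher peaks made up 50.9% of calls by rank, 26.5% by log2(tags + 1) and 36.5% by edgeR. On these 2 other scales both counts rose, and KDM5A-higher peaks rose more. Why the split moved was not tested. All 577 KDM5A-higher peaks but 417 of the 599 KDM5C-higher ones were called the same way by edgeR. Leaving out KDM5A replicate 1 left 421 and 254 calls, and leaving out KDM5A replicate 2 left 381 and 252. Without KDM5C replicate 1 there were 1660 and 1760 calls, and without KDM5C replicate 2 there were 1473 and 1741, where the lone KDM5C library is assumed to vary like the KDM5A pair. The protein, its antibody and its peak windows cannot be told apart in these ranks.

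The sets parted by distance. KDM5A-higher peaks were 17.0% of the 900 shared peaks within 250 bp of a start, 22.4% of the 1144 at 251 to 1000 bp and 15.0% of the 999 at 1001 to 5000 bp. Beyond 5000 bp they were scarce: 0.878% of 1367 up to 20000 bp, 0.382% of 1571 up to 100000 bp, and none of the 393 farther out. KDM5C-higher peaks changed less, from 8.44% and 8.04% in the nearest bins to 12.5% in the farthest. Of the 577 KDM5A-higher peaks 70.9% were promoter peaks, and of the 599 KDM5C-higher peaks 28.0%. Among promoter peaks, those upstream of the start had a median percentile difference (KDM5C minus KDM5A) of -11.7 points and those at or downstream of it -24.2. Distal shared peaks that overlapped an H3K4me3 promoter peak resembled promoters: 28.3% of these 481 were KDM5A-higher, against 0.831% of the 3849 without. On the X chromosome, which carries Kdm5c itself, 3 of 131 shared peaks (2.29%) were KDM5C-higher and 6 (4.58%) KDM5A-higher.

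**Figure D2:**
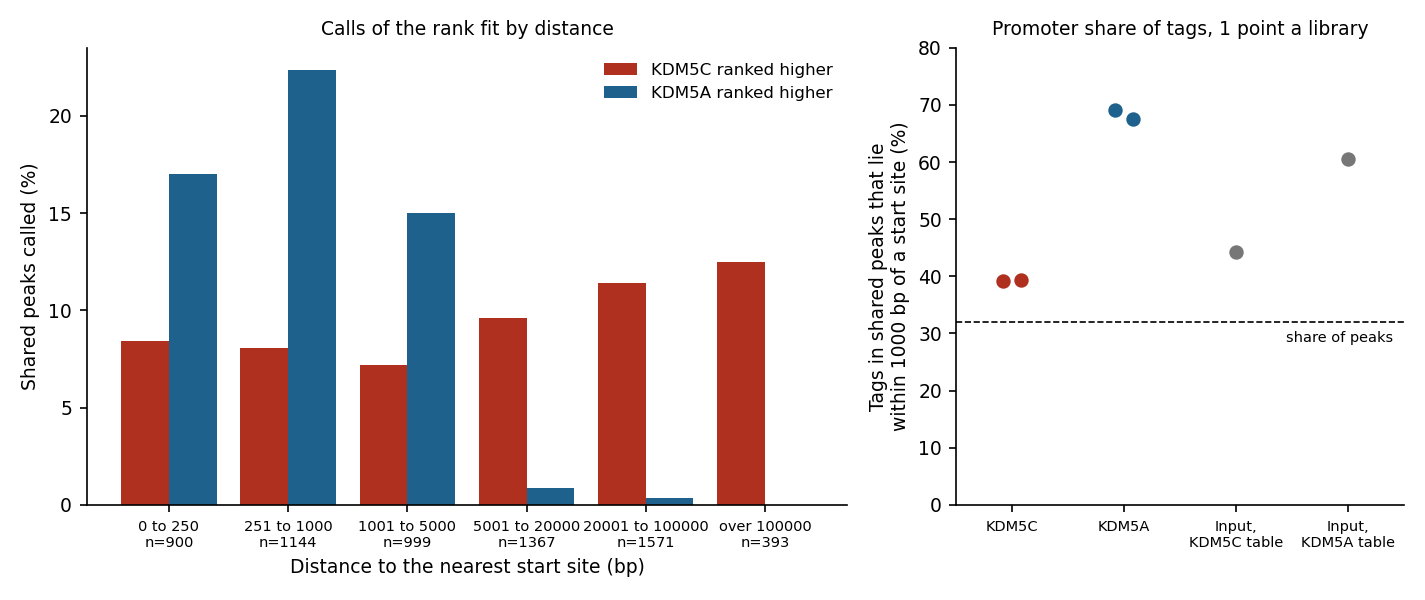
Left, the percentage of shared peaks called KDM5C-higher (red) or KDM5A-higher (blue) in 6 bins of distance to the nearest start site in bp, n under each bin; right, the percentage of tags in shared peaks that lies within 1000 bp of a start, 1 point a library, with a dashed line at the 32.1% of peaks there. KDM5A-higher peaks peak at 22.4% at 251 to 1000 bp and drop below 1% beyond 5000 bp, and the KDM5C libraries (39.2% and 39.4%) lie below the KDM5A libraries (69.1% and 67.5%).

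The called peaks also differed in window and background. KDM5C-higher peaks had a median width of 1089 bp, a merge number of 2 or more in 65.3% of cases and 4.5 Input tags. KDM5A-higher peaks had 500 bp, 10.6% and 0.9 Input tags in the KDM5C table, while their KDM5A windows spanned 2920 bp and held 20.7 Input tags. Median KDM5C tags were 67.9 and 30.8 in the first set and 20.4 and 9.84 in the second, and median KDM5A tags were 40.9 and 37.1 against 511 and 372. With Input subtracted from every value before ranking, 454 and 457 peaks were called, all of them among the 599 and 577. Whether width or Input sets the remaining rank differences was not tested.

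The highest KDM5C signals of the shared set lay at promoters that KDM5A also occupied strongly. Suv420h1, which encodes a histone H4 lysine 20 methyltransferase, had the most: 733 and 346 KDM5C tags (216 and 281 reads) beside 542 and 421 KDM5A tags, at chr19:3767262-3769010 (mm9), 715 bp from the start. Cltc, the clathrin heavy chain, had 556 and 202 KDM5C tags and 440 and 312 KDM5A tags at chr11:86570906-86571931. Its rank score was higher for KDM5C by 2.02 (SE 0.12, adjusted p = 0.00397, limma), although its KDM5A percentile of 91.0 was itself high. Gnb2, a G protein beta subunit, had 431 and 204 KDM5C tags against 415 and 380 KDM5A tags, its peak reaching the start site. At these 3 genes all KDM5C ranks lay above all KDM5A ranks. The fourth, a distal peak 7665 bp from the start of Acacb, an acetyl-CoA carboxylase, had 560 and 84.9 KDM5C tags and 1269 and 67.3 KDM5A tags. Replicate 1 was the high library of both proteins there, the spread was wide, and the peak was not called (adjusted p = 0.269, limma).

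Promoters with the widest gap in favour of KDM5C carried little KDM5A, and choosing by gap favours a low KDM5A rank. Over all 168 KDM5C-higher promoter peaks, median KDM5A tags were 191 and 145, and median KDM5C tags 89.9 and 38.1. Trpd52l3 had 57.7 and 24.6 KDM5C tags against 0 and 1.55 KDM5A tags, and Input of 2.7 and 1.8 in the respective tables. Npas4, an activity-induced transcription factor of neurons, had 88.2 and 52.9 KDM5C tags (26 and 43 reads) against 20.4 and 9.28 KDM5A tags, at chr19:4988925-4989554. Its KDM5C percentile was 97.6 and its KDM5A percentile 28.0 (score difference 2.61, SE 0.28, adjusted p = 0.00638, limma). Its upstream bases, printed above and outside the peak, held 16 CpGs, beside a median of 18 on the KDM5A-higher side. Serpinb1a, an inhibitor of neutrophil proteases, had 44.1 and 22.2 against 9.08 and 8.5 tags, and Ffar2, a receptor for short-chain fatty acids, 33.9 and 18.5 against 2.27 and 7.73. Entpd5, Rassf6, 1700054A03Rik and Fam57b completed the 8 with the widest gaps, with KDM5C percentiles of 82.3 to 95.6 and KDM5A percentiles of 21.9 to 37.1. The widest distal gaps, near Atp6v1b2, Tm2d1, Slc25a26 and Unc5a, lay 10559 to 91364 bp from a start and had KDM5A tags of 0 to 4.64. Their KDM5C tags were 47.5 to 81.5 in replicate 1 and 18.5 to 32.0 in replicate 2.

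Promoters with the widest gap in favour of KDM5A were heavily occupied by it and stood at the low end of the KDM5C table. Trim8, a ubiquitin ligase, had 1008 and 821 KDM5A tags but 13.6 and 2.46 KDM5C tags, which are 4 and 2 reads (score difference -4.03, SE 0.33, adjusted p = 0.00466, limma). Sec16a, a scaffold of endoplasmic reticulum exit sites, had 783 and 560 against 13.6 and 1.23 tags, the latter a single read. Nat10, an RNA acetyltransferase, had 561 and 423 KDM5A tags against 17.0 and 3.69 KDM5C tags at chr2:103600206-103600706. B230319C09Rik, Ankrd17, Tomt, Ubn1 and Tra2b made up the 8, with 2 to 5 KDM5C reads in any library. At such counts KDM5C is near the lowest value that the table holds, so these peaks show a low KDM5C rank and not an absence of KDM5C. Distal examples lay close to starts, 1230 to 1871 bp away, near Wdr38, Brd2, Nolc1 and Phf12, with KDM5A tags of 542 to 1176.

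The highest KDM5A signals were at Znhit2, Med20, Ift140 and Nip7, and KDM5C ranks differed widely among them. Znhit2, 1398 bp upstream of the start, had 2000 and 1416 KDM5A tags and 44.1 and 13.5 KDM5C tags. Med20, a Mediator subunit, had 1730 and 1006 against 33.9 and 13.5, and Nip7, a ribosome assembly factor, 1607 and 926 against 23.8 and 12.3. Ift140, a part of the intraflagellar transport machinery of cilia, had 1464 and 1112 KDM5A tags and also 84.8 and 40.6 KDM5C tags, which put it at the 96.5 percentile of KDM5C. All 4 were called KDM5A-higher (adjusted p = 0.00397 to 0.00772, limma), Ift140 with the smallest score difference, -1.48 (SE 0.18).

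**Figure D3:**
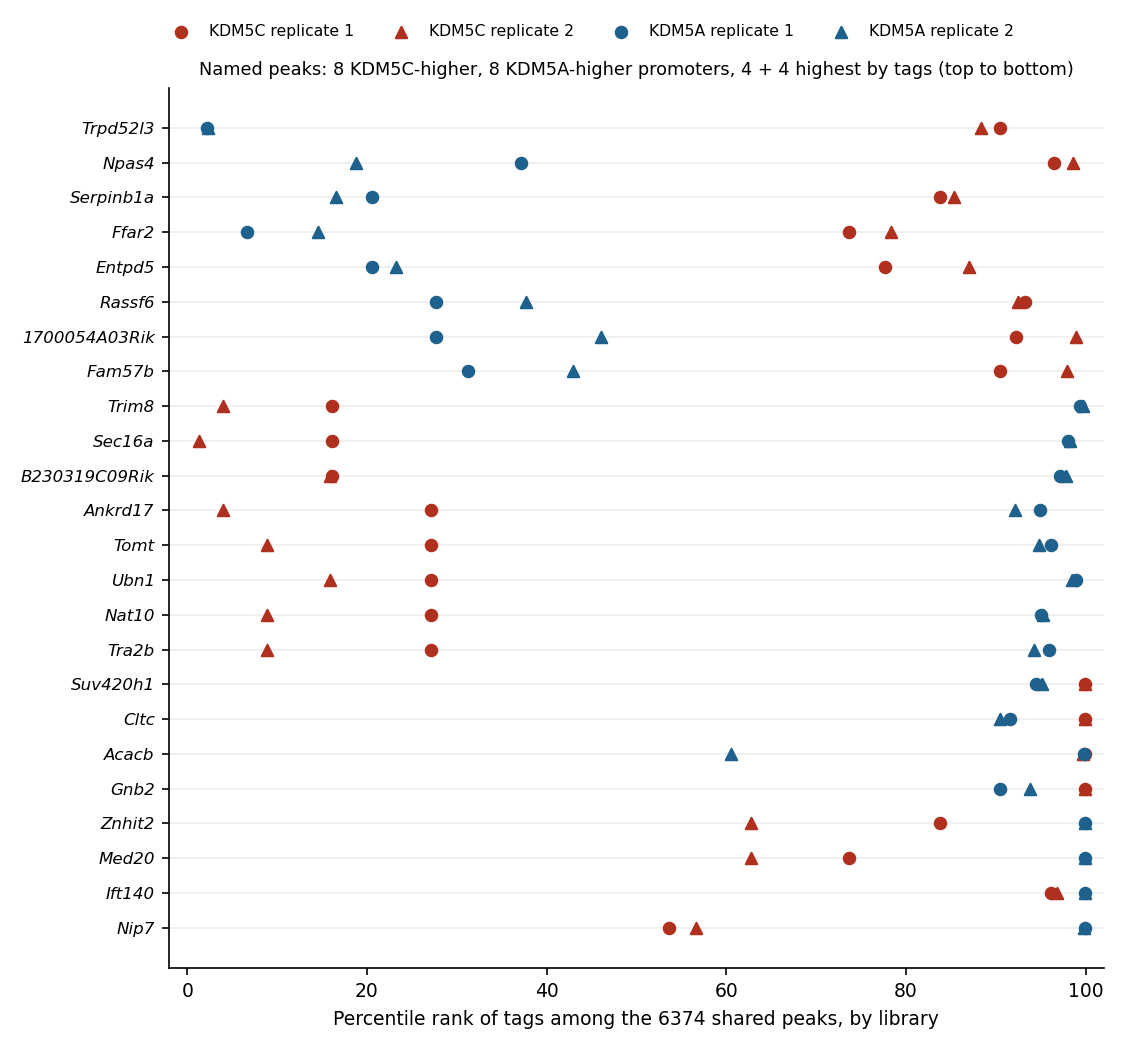
Percentile rank of tags (x axis) in each KDM5C library (red) and KDM5A library (blue), circles for replicate 1 and triangles for replicate 2, for the 8 promoters with the widest gap in each direction and the 4 peaks with most KDM5C or KDM5A tags (y axis, gene names). The first 2 blocks were chosen for ranks that do not overlap, so their separation is the rule; within them KDM5A percentiles of the KDM5C-higher promoters spread from near 0 to near the middle, and Acacb spreads between its replicates.

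Lists of genes were read at their promoter peaks against the 2007 promoter genes, of which 166 (8.27%) were KDM5C-higher and 397 (19.8%) KDM5A-higher, with a median percentile difference of -17.4 points. This background follows from ranking over all shared peaks, distal ones included: with the 2044 promoter peaks ranked among themselves, an alternative chosen after seeing the data, 386 were KDM5C-higher and 315 KDM5A-higher, in place of 168 and 409. Of 24 adipocyte genes 8 had a shared promoter peak, and 4 of the 8 were KDM5C-higher and none KDM5A-higher, with a median difference of 11.7 points. These were Lipe (hormone-sensitive lipase), Plin1 (perilipin, a lipid droplet coat protein), Dgat2 (triglyceride synthesis) and Cav1 (caveolin). Lipe had 156 and 79.97 KDM5C tags against 86.3 and 126 KDM5A tags, Plin1 57.7 and 23.4 against 54.5 and 39.4, and Dgat2 71.3 and 23.4 against 38.6 and 37.1. In these 3, KDM5C ranked at 88.7 to 99.4 and KDM5A at 50.7 to 65.3. Plin1 is the promoter printed above with 1 CpG. Lpl, Scd1, Slc2a4 and Pnpla2 were not called. The 6 adipogenic factors with a shared promoter peak had no KDM5C-higher member and 1 KDM5A-higher member (16.7%, beside 19.8% of all promoter genes). This was Med1, a Mediator subunit that binds PPARG, with 883 and 499 KDM5A against 20.4 and 3.69 KDM5C tags.

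Among housekeeping lists, those of ribosomal proteins lay toward KDM5A. All 6 mitochondrial ribosomal protein genes with a shared promoter peak (of 33 listed) were KDM5A-higher: Mrpl2, Mrpl27, Mrpl37, Mrps5, Mrps10 and Mrps18a, with a median difference of -33.6 points. Mrps10 had 717 and 449 KDM5A tags against 17.0 and 6.15 KDM5C tags, and Mrpl2 1512 and 788 against 30.5 and 11.1. Of 10 cytosolic ribosomal protein genes 4 were KDM5A-higher (Rps18, Rps19, Rpl11 and Rpl37) and 1 was KDM5C-higher, with a median difference of -28.2 points. Of 3 heat shock and unfolded protein genes, Hspa5 and Hspe1 were KDM5A-higher. The replication list had 9 members with a median difference of -8.44, nearer to 0 than that of all promoter genes. Of these, Orc1, a subunit of the origin recognition complex, and Cdc45, a part of the replicative helicase, were KDM5A-higher (22.2%, beside 19.8% of all promoter genes). Orc1 had 951 and 602 KDM5A tags against 10.2 and 9.84 KDM5C tags. E2f1 was KDM5A-higher, as 1 of 2 E2F, DP and RB factors, and so was Ndufb6, as 1 of 2 genes of the respiratory chain. Pdgfra, a receptor of preadipocytes, was KDM5A-higher as 1 of 5 on its list (20%, beside 19.8% of all promoter genes). Among 9 writers, erasers and their partners, Hdac2 (a histone deacetylase) was KDM5C-higher with 204 and 75.1 against 150 and 121 tags. Ash2l, a subunit of the H3K4 methyltransferases, was KDM5A-higher (11.1% of the 9 on each side). The MYC network, with 4 members here, split likewise, with Mga KDM5C-higher and Mnt KDM5A-higher. Tdrkh, 1 of 2 germline genes, was KDM5C-higher. The median difference of those 2 genes was 16.2 points, above 0 like that of the adipocyte genes. The 2 genes of the neuronal list went opposite ways, Snap25 at 29.1 and Rest at -27.3 points, with a median of 0.883. No member of the mitosis, immediate-early, clock, neuronal, interferon, or macrophage and endothelial lists was called, at 4, 5, 2, 2, 1 and 1 promoter peaks. No Kdm5 gene had a shared promoter peak, and a distal one 3032 bp upstream of Kdm5b was not called, with 27.2 and 17.2 KDM5C and 114 and 109 KDM5A tags. Most lists have under 10 members here, and windows moved with them: KDM5C width had a median of 996 bp at the adipocyte genes and 500 bp at the cytosolic ribosomal ones. Its part in the lists' differences was not tested.

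**Figure D4:**
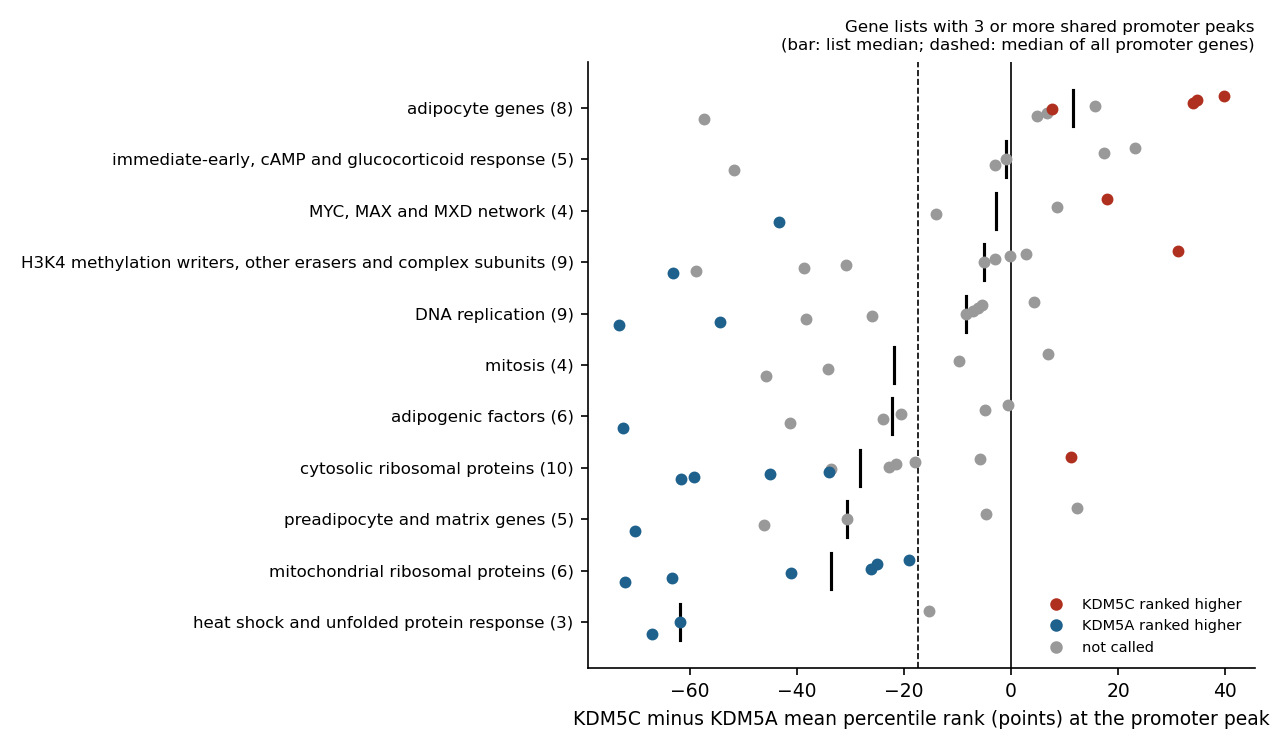
Difference of mean percentile rank, KDM5C minus KDM5A in points (x axis), at the promoter peak of each member of the gene lists with 3 or more such peaks (y axis, number of members in brackets); points are genes, red KDM5C-higher, blue KDM5A-higher and grey not called, and bars are list medians. The adipocyte genes have the only median above 0 among the lists drawn, 11.7 points, against -17.4 for all promoter genes (dashed line).

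KDM5A libraries of day 0 and of 4 hours were set against the same KDM5C libraries of day 2, which these comparisons share with the one above. KDM5A of day 0 gave 669 KDM5C-higher and 601 KDM5A-higher peaks, and KDM5A of 4 hours 675 and 649, by limma as before. Median KDM5A percentiles of the KDM5C-higher peaks were 45.3 and 47.2 at day 0, 48.3 and 48.5 at 4 hours, and 50.6 and 51.7 at day 2. Those of the KDM5A-higher peaks lay between 93.2 and 93.8 in all 6 libraries.

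Promoters on both sides were CpG-rich. RefSeq's table gave a sequence for 136 of the 166 KDM5C-higher genes (81.9%) and for 330 of the 397 KDM5A-higher genes (83.1%). Median GC content of the 250 bases before the start was 60.8% and 61.2%, against 52.4% over all 27025 genes of the table, and the median number of CpGs was 17 and 18 against 6. The GC box CCGCCC, on either strand, stood in 59.9% of the KDM5C-higher and 64.1% of the KDM5A-higher promoters and in 32.7% of all. The ETS motif CCGGAAG stood in 15.8%, 18.7% and 7.07%, the E-box CACGTG in 11.4%, 8.08% and 5.97%, and the CRE TGACGTCA in 3.68%, 2.68% and 1.58%. CCAAT stood in 29.1%, 35.6% and 34.3%, and TATAAA in 3.98%, 4.60% and 13.0%. The sides therefore differed from the genome in the same direction for all of these but CCAAT, and by these counts little from each other. For the 1444 uncalled genes with a shared promoter peak no values are given, since 78.7% had a sequence, under the 80% required. Whether these traits mark the called promoters or shared promoters in general was therefore not tested. A motif counted here is a match of letters only.

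RNA of the called genes was compared between shKdm5ABC and shLuc cells at day 2. Over all 13534 genes tested, 766 were higher (5.66%) and 452 lower (3.34%) in the knockdown by limma with Benjamini-Hochberg adjustment. With the replicate number as a block these were 1885 (13.9%) and 1924 (14.2%), and from the 4 compared libraries alone 23 and 2. Of 157 KDM5C-higher promoter genes tested, 11 were higher (7.01%) and 6 lower (3.82%), 17 and 17 with the block (10.8% each). Of 392 KDM5A-higher genes, 10 were higher (2.55%) and 13 lower (3.32%), 34 (8.67%) and 84 (21.4%) with the block. Of all 1927 promoter genes of shared peaks tested, 4.98% were higher and 3.58% lower, 13.5% and 16.6% with the block. Median log2 differences were -0.07 for KDM5A-higher, -0.05 for KDM5C-higher and -0.02 for all these promoter genes, against -0.003 over all genes. KDM5A-higher genes were also the more abundant, with a median log2 level of 7.89 in shLuc cells against 7.06 for KDM5C-higher genes. It was 7.17 for all promoter genes of shared peaks and 6.71 over all genes. Without any 1 of the 4 libraries compared, the counts over all genes dropped to between 139 and 656 higher and 26 and 314 lower, and the RNA library of shKdm5ABC at day 0, replicate 2, which enters the shared estimate of spread, stood apart with an Adipoq level of 5.80 beside 3.06 in its replicate.

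Among the named peaks few genes changed in RNA. Serpinb1a, a KDM5C-higher gene, was at 3.75 and 3.31 in shLuc and at 5.58 and 5.10 in knockdown cells, and rose by 1.81 (SE 0.22, adjusted p = 0.00223, limma). Of the KDM5A-higher genes, Pdgfra rose by 1.19 (adjusted p = 0.023) and Ubn1, a subunit of a histone H3.3 chaperone complex, by 0.62 (adjusted p = 0.0147, limma). Cdc45 fell by 0.78, Tra2b (a splicing factor) by 0.60, Hspe1 (a mitochondrial chaperone) by 0.56 and Mrpl37 by 0.41, with adjusted p of 0.035, 0.0122, 0.0123 and 0.0499 by limma. Cdc20, the activator of the anaphase-promoting complex, fell by 1.09 (adjusted p = 0.0047, limma), and its promoter peak was not called by rank, with percentiles of 83.7 for KDM5C and 76.9 for KDM5A. It was KDM5A-higher on the log2 scales (-1.56 and -1.57) and by edgeR (-1.20). From the 4 compared libraries alone none of these 8 genes passed (adjusted p 0.0787 to 0.195, limma), and without 1 library at a time Serpinb1a alone passed each time (0.00373 to 0.0274). With the replicate block all 8 passed, and so did Ffar2 on the KDM5C-higher side (log2 difference -1.40, adjusted p = 0.0369) and E2f1, Med1, Nolc1, Mrpl2, Mrpl27, Mrps5, Mrps10 and Ndufb6 on the KDM5A-higher side, with log2 differences of -0.67 to -0.31 (adjusted p 0.00114 to 0.0439, limma). Read over lists without the block, RNA was lower for 5 and higher for 0 of the 9 replication genes with a shared promoter peak. It was lower for 2 and higher for 0 of the 4 mitosis genes, and higher for 3 and lower for 0 of the 5 preadipocyte and matrix genes. Of all 1927 promoter genes of shared peaks tested, 3.58% were lower and 4.98% higher. No other list had more than 1 gene whose RNA passed. From the 4 compared libraries alone 2 genes were lower and 23 higher among all 13534. Of these 5, 2 and 3 genes whose RNA passed, Cdc45 and Pdgfra alone were called by rank.

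H3K4me3 was higher at KDM5A-higher peaks in every library. Of the KDM5A-higher peaks 93.8% overlapped an H3K4me3 promoter peak, and of the KDM5C-higher peaks 30.2%, beside 38.3% of all shared peaks. Within 1000 bp of a start the shares were 99.0% and 89.9%. At the H3K4me3 peaks so joined, the median of the mean over 12 libraries was 1016 tags for KDM5A-higher (n = 491) and 700 tags for KDM5C-higher peaks (n = 169), beside 628 over all 10702. It was 756 for all joined to a shared peak (n = 2274) and 698 for those joined to uncalled ones (n = 1614), so the KDM5C-higher value was near that of uncalled peaks. The KDM5A-higher median exceeded the KDM5C-higher one in 12 of 12 libraries, by 1.38 to 1.6 times. Across the 2274 H3K4me3 peaks with a shared peak, rho with H3K4me3 tags was 0.54 and 0.58 for the KDM5A libraries and 0.085 and 0.082 for the KDM5C libraries. H3K4me3 peaks were 3267 bp wide on the KDM5A side and 2714 bp on the KDM5C side.

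**Figure D5:**
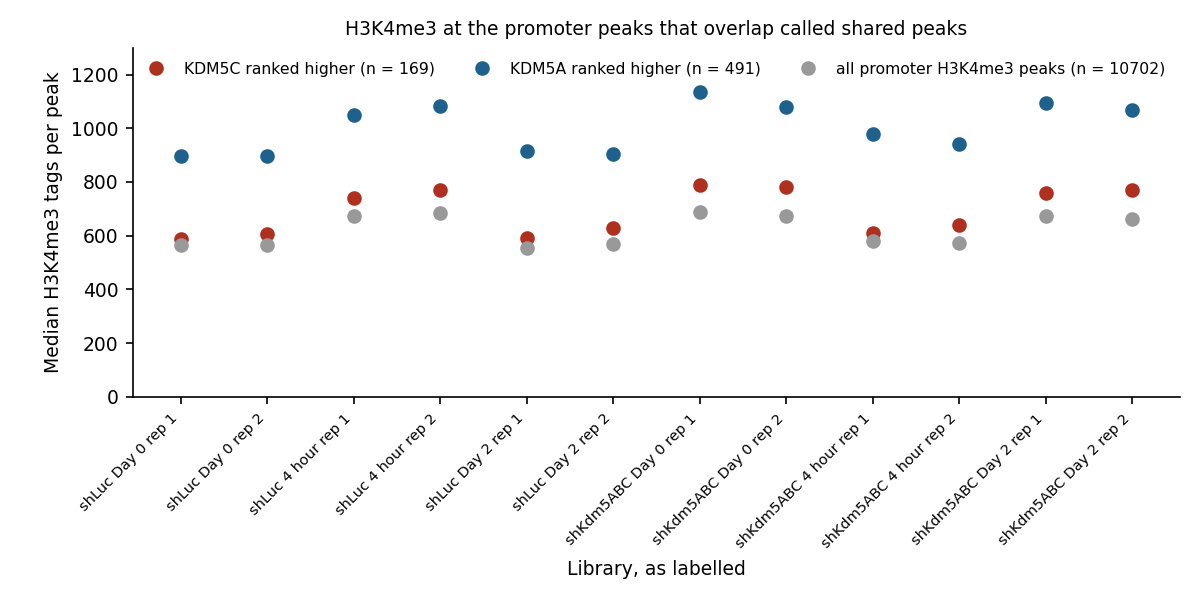
Median H3K4me3 tags per promoter peak (y axis) in each of the 12 libraries as labelled (x axis), at peaks joined to KDM5A-higher (blue, n = 491) or KDM5C-higher shared peaks (red, n = 169) and over all 10702 (grey). Blue lies above red in every library, 1.38 to 1.6 times as high, whatever the label.

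As labelled, the day 2 contrast of H3K4me3 had 2545 peaks higher (23.8%) and 26 lower (0.243%) in the knockdown, and 5575 (52.1%) and 108 (1.01%) with the replicate block, by limma with Benjamini-Hochberg adjustment. The KDM5C-higher side had 57 of 169 peaks higher and 0 lower, 112 and 0 with the block, and the KDM5A-higher side 108 of 491 and 0, 259 and 5 with the block. Because the libraries labelled shLuc Day 2 lacked the H3K4me3 of adipocyte genes and those labelled shKdm5ABC Day 2 had it, these counts are given as labelled and are not read as an effect of the knockdown.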

How the data were processed

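The authors deposited ChIP tags per peak as a scaled signal in separate KDM5A, KDM5C and H3K4me3 tables, and RNA as log2 tags per kb of transcript. The build was mm9, per the labels' protocols. STAR, HOMER, Bowtie2 (0.12.8 as listed), Subread and DESeq2 are named, per the submitters' processing notes, and the total to which tags were scaled is not given in the sources used here. Dividing by the smallest step gave whole reads for 100% of the deposited KDM5A and KDM5C values within 0.1 of a read.

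A KDM5C peak was shared when it overlapped a KDM5A peak by at least 1 bp, and its KDM5A value was the sum over its KDM5A partners. Ranks within each of the 4 libraries were turned into normal scores and compared with limma 3.58.1 in R 4.3.3 (trend, 2 residual degrees of freedom, Benjamini-Hochberg adjustment over 6374 peaks, threshold 0.05), with edgeR 4.0.16 on recovered reads as an alternative. RNA (13534 genes above log2 1 in at least 2 libraries) and log2(tags + 1) of 10702 H3K4me3 peaks were fitted with limma over 12 libraries each. The fits were also run on simulated data. For the ranks, these gave both proteins a common profile of peaks and a common setting of spread. They therefore do not cover a difference in spread between the proteins. Same-numbered RNA and H3K4me3 libraries deviated together (r 0.381 to 0.657 and 0.504 to 0.790 over 15 pairs each), so the blocked values stand beside those results. Each lone library left by an omission is assumed to vary like the rest.

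Named peaks were the 8 promoter and 4 distal peaks with the largest percentile difference in each direction (called, groups not overlapping, at least 20 mean tags and 2 times Input), the 4 with most tags of each protein, up to 3 members of each of 19 gene lists, and the Kdm5 genes. Peaks, lists and rules were chosen with earlier results of these data known. The Input library labelled virus was not analysed here.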

Additional observations from a re-analysis of the deposited data

How the results depend on the processing

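Over all peaks of each table, median reads per peak were 5 and 6 for KDM5C and 4 and 12 for KDM5A. At the 6374 shared peaks, median tags were 23.8 and 11.1 for KDM5C and 38.6 and 34.0 for KDM5A. The calls of both sides changed with the processing. KDM5C-higher and KDM5A-higher peaks numbered 599 and 577. Tags per kb of peak gave 0 and 0 (1223 at an unadjusted p below 0.05 by limma, and 1968 without the trend, which also gave 0 and 0). At least 20 mean tags in both proteins gave 318 and 288 of 1882 peaks, log2(tags + 1) gave 821 and 2274, log2(tags + 5) gave 1240 and 2342, and edgeR gave 1192 and 2078. Chosen after seeing the data, a merge number of 2 or more gave 226 and 239 of 1328, peaks within 1000 bp ranked among themselves 386 and 315, and peaks with over 5 reads in both KDM5C libraries 622 and 611 of 3339. Leaving out 1 library gave 381 to 1660 and 252 to 1760. Replicate numbers of KDM5C and KDM5A share only a number (r = 0.127, 1 pair), and the replicate block gave 749 and 888. The other settings (highest partner, 50% overlap, 1-to-1 overlap, Input subtracted, raised Input left out, percentile ranks, KDM5A of day 0 or 4 hours) stayed within 1.5 times, from 454 to 675 and from 457 to 649. The cause of these shifts was not tested.

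A limit of 500 bp or 5000 bp put 22.7% or 40.1% of KDM5C-higher and 49.2% or 96.9% of KDM5A-higher peaks near a start, and the difference in promoter share of tags became -20.4 or -33.1 points. It was -29.9 with Input subtracted, and -29.8 to -28.2 without 1 library, an omission chosen after seeing the data.

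RNA at day 2 gave 23 higher and 2 lower genes from the 4 compared libraries alone, 1885 and 1924 with the replicate block, and 139 to 656 and 26 to 314 without 1 library. H3K4me3 as labelled gave 5575 and 108 peaks with the replicate block, and 1070 to 1595 and 6 to 18 without 1 library.

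Over 65 named peaks, 1066 of 1296 alternative values kept direction and side of the threshold, 25 changed sign but were called in neither comparison, 154 were no longer called, 40 became called and 11 reversed with a call in one of the comparisons. The score difference reversed for Cdc20 (-1.56 with log2(tags + 1), -1.57 with log2(tags + 5), -1.20 with edgeR), for Arntl (-1.69, -1.68 and -1.29, and -0.331 to 0.631 when 1 library was left out, the lowest without KDM5C replicate 1), for Kdm5b (-1.20 and -1.18 with the log2 scales), for Mga (-0.0578 with log2(tags + 5)) and for Cd14 (-1.75 to 0.377 when 1 library was left out, the highest without KDM5C replicate 1).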
